A study of Mus musculus with 14 samples.

Results

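Serotonin receptor genes were followed across 7 types of neuron from the medial vestibular nucleus of the mouse, a brainstem nucleus that carries head motion signals to eye, neck and posture circuits. The genes were taken by symbol: Htr1a, Htr1b, Htr1d, Htr1f, Htr2a, Htr2c, Htr3a, Htr4, Htr5b and Htr7. Of these 10 genes, 8 had a probe set in the value table. They had 10 probe sets in all, among 30843 probe sets and 16245 genes. Htr1a and Htr2a had no probe set under their symbol and were not analysed here.

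Neurons came from YFP-16, GIN and GlyT2-13 mice, transgenic reporter lines on the C57BL/6 background, aged 24 to 32 days after birth. YFP-16 marks cells with regulatory sequence of Thy1, GIN with that of Gad1 and GlyT2-13 with that of Slc6a5, and which line gave which cells of a pool is not stated in the sources used here. The authors amplified cDNA from individual cells, sorted the cells into types by transmitter genes, ion channels and markers, and pooled the cDNA of each type. The authors class the E1 and E2 pools as excitatory. The inhibitory pools are I1a and I1b, I2, and the I3a and I3b pair. Each pool was read on 2 arrays, which are technical replicates, so 14 arrays stand for 7 pools. A further excitatory type named in the design, E3, was not analysed here.

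Serotonin reaches the vestibular nuclei from raphe neurons of the brainstem and acts there through several receptor families. Receptors of the Htr1 and Htr5 families couple to Gi/o proteins, which restrain adenylyl cyclase and can open Kcnj3-containing potassium channels. Htr2 receptors couple to Gq and phospholipase C beta, and often raise excitability. Htr4 and Htr7 couple to Gs and raise cyclic AMP, while Htr3a forms a cation channel that serotonin opens directly.

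Values are log2 signals, made by the authors with GCRMA, a method that adjusts background and normalizes between arrays. The lowest value in the table was 2.387, which acts as a floor, and a gene was tested when at least 1 pool had a mean of 5 or more, as 4410 genes (27.1%) did. Levels were compared between pools for 1 probe set at a time, or for averages over probe sets or marker genes where stated. Heights were not ranked between genes, though the level of 5 was applied to all. Because the cDNA was pooled, a low level in every cell and expression in few cells cannot be told apart.

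Of the 8 genes measured, 3 reached 5: Htr2c, Htr1d and Htr7. The other 5 stayed below 5 on all 14 arrays. Htr2c (Entrez gene 15560) lies on the X chromosome, positions 146962464 to 147197277 of GRCm38.p6. Htr1d (Entrez gene 15552) lies on chromosome 4, positions 136423522 to 136444405, and Htr7 (Entrez gene 15566) on chromosome 19, positions 35958415 to 36058133.

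The upstream sequences of Htr1d and Htr2c are shown because these are the receptor genes whose levels were highest in E1 and lowest in I2. For Htr1d this was read on the brighter of its 2 probe sets. Each stretch covers bases 250 to 51 before an annotated transcript start, outside the annotated gene, on the plus strand of GRCm38.p6, from RefSeq: chr4:136423274-136423473 for Htr1d and chrX:146962263-146962462 for Htr2c. Capitals mark matches on either strand to the CCAAT box and to GGGCGG, the GC box.
Htr1d: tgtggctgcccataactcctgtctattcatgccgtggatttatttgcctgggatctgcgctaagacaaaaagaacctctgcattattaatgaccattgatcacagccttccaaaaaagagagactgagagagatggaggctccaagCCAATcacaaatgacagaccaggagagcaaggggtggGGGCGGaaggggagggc
Htr2c: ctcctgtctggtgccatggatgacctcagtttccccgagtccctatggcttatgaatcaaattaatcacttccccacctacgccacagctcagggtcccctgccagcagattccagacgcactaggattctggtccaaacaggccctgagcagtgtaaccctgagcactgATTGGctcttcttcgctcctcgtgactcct
The first base of the CCAAT match, as printed, lay 104 bases before the start in Htr1d and 80 bases before it in Htr2c. In Htr2c the match is on the other strand and is printed as ATTGG. The Htr2c stretch ends at 146962462, just before the annotated gene begins at 146962464, so the start used there lies inside the gene. By its coordinates the start used for Htr1d also lies inside the annotated gene, close to its first base. CCAAT occurs on either strand in 28.4% of the 32851 promoter windows of the same length. GGGCGG was found in the Htr1d stretch, 67 bases before the start, and occurs in 24.6% of windows. Neither stretch held the TATA motif TATAAA, which occurs on either strand in 9.14% of windows. The same was true of the core of cyclic AMP response elements, TGACG, found in 12.7% of windows, and of the E-box CACGTG, found in 4.34%. No motif overlapped another. Htr1d has another annotated start deeper inside the gene, which is not shown, and the arrays do not tell starts apart.

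Before the receptors, the pools were read for markers of other cells. Arrays of a pool correlated at r = 0.981 to 0.992 over the 4410 genes and arrays of different pools at 0.847 to 0.960, which are correlations across genes that are not independent. Slc17a6, the vesicular glutamate transporter of excitatory brainstem neurons, read 11.11 in E1 and 10.98 in E2. Among inhibitory pools it was highest in I1b at 10.48, followed by 8.60 in I1a and 6.93 in I3a, but it stood at 3.11 in I2 and 3.19 in I3b. Slc32a1, Gad1, Gad2 and Slc6a5, the genes of GABA and glycine transmission, averaged 6.61 in E1 and 5.49 in E2, against 9.01 in I1b to 9.74 in I2. Mbp, a myelin gene of oligodendrocytes, read 5.5 in I1b and 6.20 in I3a and 2.43 to 3.43 in the other 5 pools, while the other oligodendrocyte markers measured, Mog, Mag and Cldn11, stayed at 2.97 or below. None of 5 astrocyte, 4 microglial, 2 endothelial, 3 Purkinje cell or 3 serotonergic neuron markers measured reached 5, and Tph2, the enzyme that marks serotonergic neurons, was at 2.53 or below in each pool.

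Htr2c, the Gq-coupled receptor whose transcript is known to be edited, was read on all 14 arrays at 7.02 or more. In excitatory pools it read 10.66 and 10.45 in E1 and 9.68 and 9.60 in E2. Among inhibitory pools, the I1 types gave 8.57 and 8.42 (I1a) and 9.26 and 9.52 (I1b), and I2 gave 7.02 and 7.05. The I3 pools gave 9.13 and 8.84 in I3a, with 7.66 and 7.63 in I3b. E1 was highest and I2 lowest, and the arrays of no neighbouring pools overlapped in the order E1, E2, I1b, I3a, I1a, I3b, I2. The smallest step was 0.25 log2 units, between E2 and I1b, beside a standard deviation of 0.13 between arrays of a pool. The pool means had a standard deviation of 1.21 (n = 7 pools).

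Htr1d, a Gi/o-coupled receptor found on nerve endings and the target of triptan drugs, varied on both sides of 5. Its brighter probe set read 7.24 and 6.92 in E1 but 3.14 and 3.71 in E2. The I1 types gave 4.79 and 4.64 (I1a) and 6.34 and 6.49 (I1b), and I2 gave 2.60 and 2.61. The I3 pools gave 5.63 and 5.19 in I3a, with 2.81 and 2.76 in I3b. The order was E1, I1b, I3a, I1a, E2, I3b, I2, so that E1 stood at the top and E2 below 3 inhibitory pools. No neighbours in it had overlapping arrays, though the last step, from I3b to I2, was 0.18 beside a standard deviation of 0.22 between arrays of a pool. Here too the share of all tested genes that part in this way was not counted. The smaller levels lie near the floor, where differences depend on where the floor is.

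The name of that probe set ends in _x_at, which marks sets with probes that may match other transcripts, so the second Htr1d probe set was read beside it. It was dimmer and noisier, with 4.52 and 3.22 in E1, 2.63 and 4.46 in I1b, and 3.73 and 3.26 in I3a. All arrays of E2, I1a and I2 lay at 2.52 or below, and I3b gave 3.07 and 2.51. Pool means of E1, I1b and I3a were thus the highest on either probe set, while I1a lay above E2 and I3b on the brighter set and below I3b on the dimmer one. The pool means of the probe sets had r = 0.876 and rho = 0.821 over 7 pools that share the same cDNA. The standard deviation between arrays of a pool was 0.63 for the dimmer set, which is larger than the 0.60 between its pools.

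Htr7, a Gs-coupled receptor, ran another course. It read 3.50 and 3.64 in E1 and 4.08 and 4.10 in E2. Among inhibitory pools, the I1 types gave 3.56 and 3.67 (I1a) and 4.96 and 5.10 (I1b), and I2 gave 5.81 and 6.06. The I3 pools gave 4.57 and 4.01 in I3a, with 4.04 and 3.92 in I3b. I2, the pool lowest in Htr2c and on the brighter Htr1d probe set, was highest in Htr7, and only its arrays and 1 of I1b passed 5. In the order I2, I1b, I3a, E2, I3b, I1a, E1, the arrays overlapped between I3a and E2 and between I1a and E1, which did not differ beyond their spread.

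**Figure D1:**
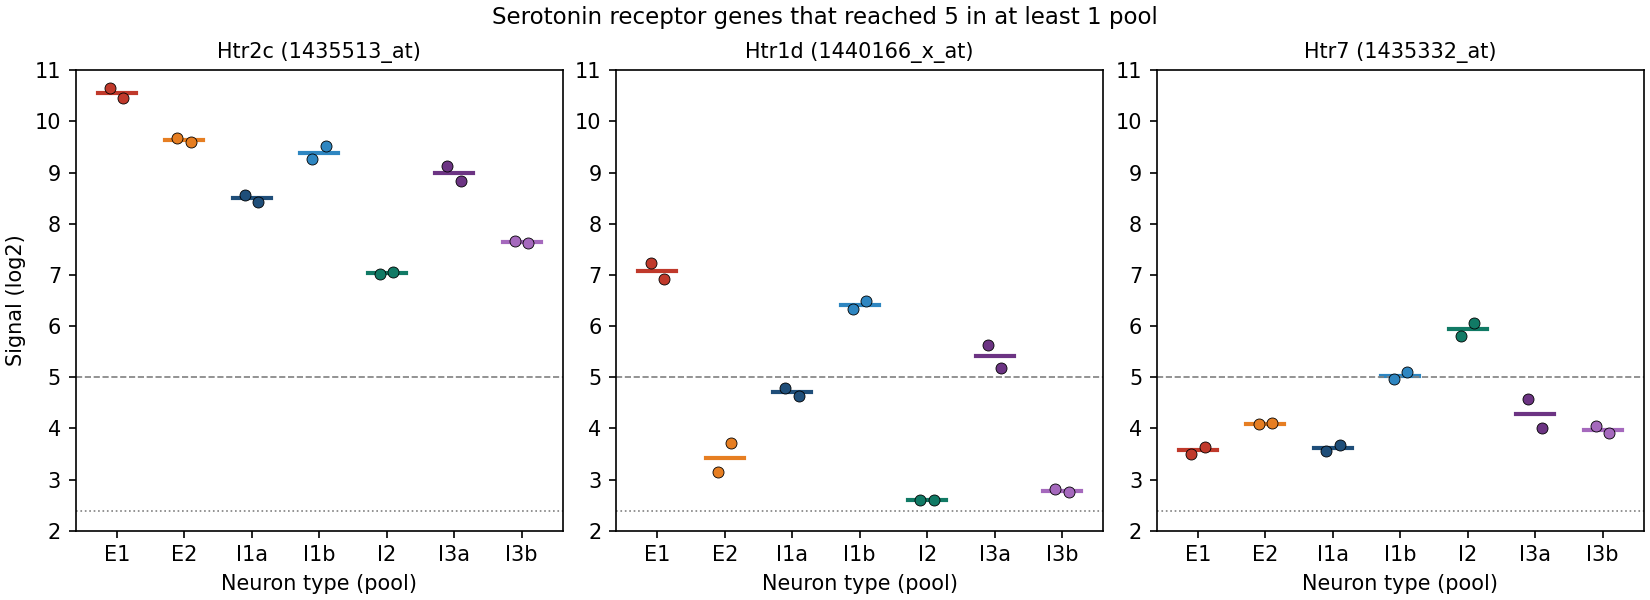
Log2 signal (vertical axis) of Htr2c, Htr1d and Htr7 in 7 neuron pools (horizontal axis). Points are the 2 arrays of a pool and bars their mean, with the floor dotted and the level of 5 dashed. Htr2c lies at 7.02 or more on every array, Htr1d spans 2.60 to 7.24, and Htr7 passes 5 on 3 arrays. Heights are not to be compared between genes.

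The 5 remaining genes gave little signal. Htr4, a Gs-coupled receptor, read 3.60 and 3.94 in I3a, 3.99 and 2.95 in I3b, and 2.41 and 2.71 in I2. Its arrays differed by up to 1.04 within a pool, beside a span of 1.21 between pool means. Htr1b, a Gi/o-coupled receptor of axon terminals, read 2.67 to 3.36 on 1 probe set and 2.39 to 3.07 on the other, where 10 of 14 arrays lay within 0.05 of the floor.

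Htr3a, the channel subunit, read 2.47 to 2.84, and its highest array was 1 of the 2 arrays of I1a. Htr1f, a Gi/o-coupled receptor, read 2.39 to 2.52 with 13 of 14 arrays within 0.05 of the floor. Htr5b, a Gi/o-coupled receptor in rodents, lay within 0.05 of the floor on all 14 arrays. On each array 48.95% to 52.28% of all probe sets lay that close to the floor and 15.13% to 16.40% reached 5. A signal near the floor gives an upper bound that depends on each probe set and does not show that a gene is silent.

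**Figure D2:**
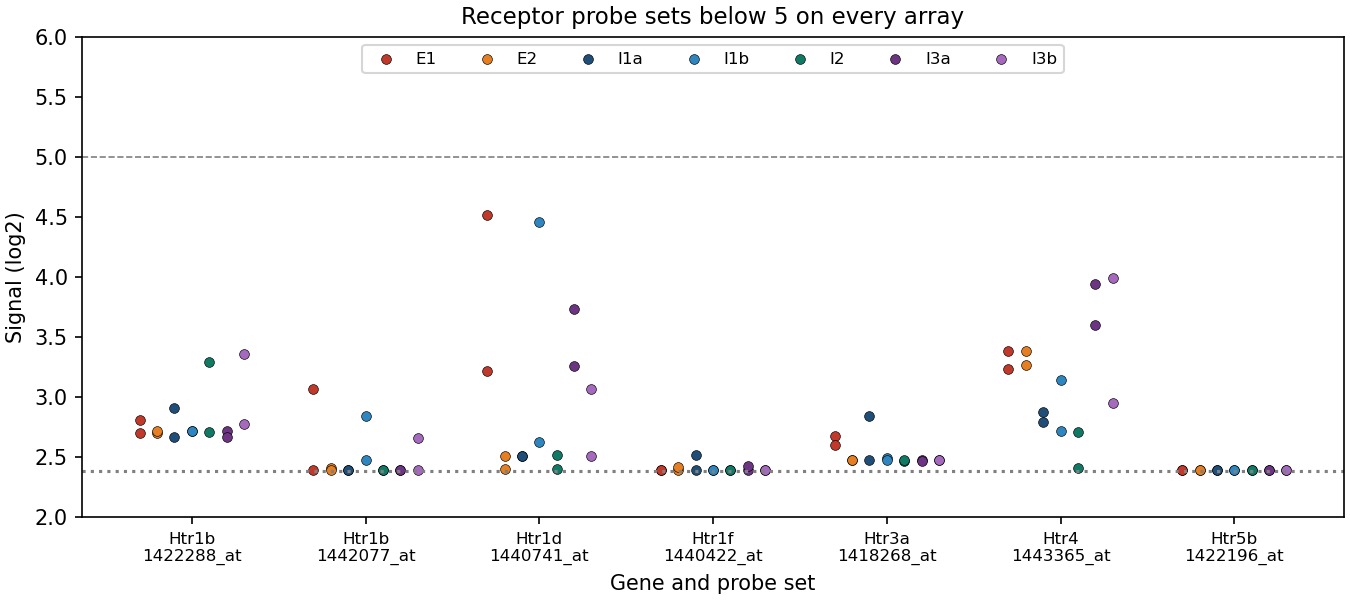
Log2 signal (vertical axis) on each of 14 arrays for the 7 receptor probe sets that stayed below 5, with the gene and probe set on the horizontal axis and colours for pools. The floor is dotted and the level of 5 dashed. The second Htr1d probe set reaches 4.52 in E1, and Htr5b stays at 2.39.

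Whether the 7 pools differ beyond technical error was asked with limma's moderated F-test on 14 arrays, with Benjamini-Hochberg adjustment over 4410 genes and a span of at least 1 log2 unit. All 3 tested receptor genes passed. Htr2c spanned 3.52 log2 units between its highest and lowest pool mean (limma adjusted p 3.20e-09), Htr1d 4.48 (limma adjusted p 2.15e-08) and Htr7 2.37 (limma adjusted p 6.12e-06). By the same rule 55.2% of all tested genes were called, and the median span over them was 1.13. With values under 5 set to 5, the Htr1d span was 2.08, and the Htr7 span was 0.94 and no longer passed the size limit. With both Htr1d probe sets averaged, its span was 2.94, and it passed under either setting, while Htr2c spanned 3.52 in both. The error here is that between arrays of a pool, so the test compares pools and says nothing of how types vary between animals.

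The excitatory and inhibitory classes were compared on pool means, 2 E pools against 5 I pools. Htr2c averaged 10.10 ± 0.65 in E pools and 8.31 ± 0.97 in I pools (SD, n = 2 and 5 pools), a difference of 1.79 log2 units with a standard error of 0.64. Both E pools lay above all 5 I pools, as for 5.99% of tested genes, and the groups parted in either direction for 12.2%. Limma gave an unadjusted p of 0.0248 and an adjusted p of 0.737, so the difference was not called. At an unadjusted p under 0.05 there were 273 genes (6.19%), and 1 gene of 4410 (0.0227%), no receptor gene, was called.

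Htr1d averaged 5.25 ± 2.59 in E pools and 4.38 ± 1.66 in I pools, with a difference of 0.87 (SE 1.30, limma adjusted p 0.910), and the groups overlapped. Its sign rested on E1: without that pool the difference was -0.96. Htr7 averaged 3.83 ± 0.37 in E pools and 4.57 ± 0.92 in I pools, with a difference of -0.74 (SE 0.63, limma adjusted p 0.820), and the groups overlapped. With I1a, I1b and I3a left out, the inhibitory pools in which Slc17a6 was above 5, the difference was 2.76 for Htr2c (limma adjusted p 0.147), 2.56 for Htr1d and -1.13 for Htr7. With I1b and I3a left out, the pools with Mbp, it was 2.38, 1.88 and -0.68 in the same order. None of these was called, and the settings were chosen after the data were seen.

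Slc17a6 moved with Htr2c across pools. Their pool means had r = 0.924 and rho = 0.964 over 7 pools, against r = 0.715 and rho = 0.750 for Htr1d and r = -0.443 and rho = -0.536 for Htr7. I2 and I3b, which had the least Slc17a6, also had the least Htr2c and, on its brighter probe set, the least Htr1d. On the dimmer Htr1d set I3b read 2.79, above I1a at 2.51 and I2 and E2 at 2.46. E2 departed for Htr1d, with Slc17a6 at 10.98 and Htr1d at 3.42. Htr1d and Htr2c had r = 0.795 and rho = 0.786. These values describe 7 points that share amplification, pooling and normalization, and carry no test. Cells were sorted into types with transmitter genes, and the part of Slc17a6-positive cells in the receptor levels of inhibitory pools was not tested.

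**Figure D3:**
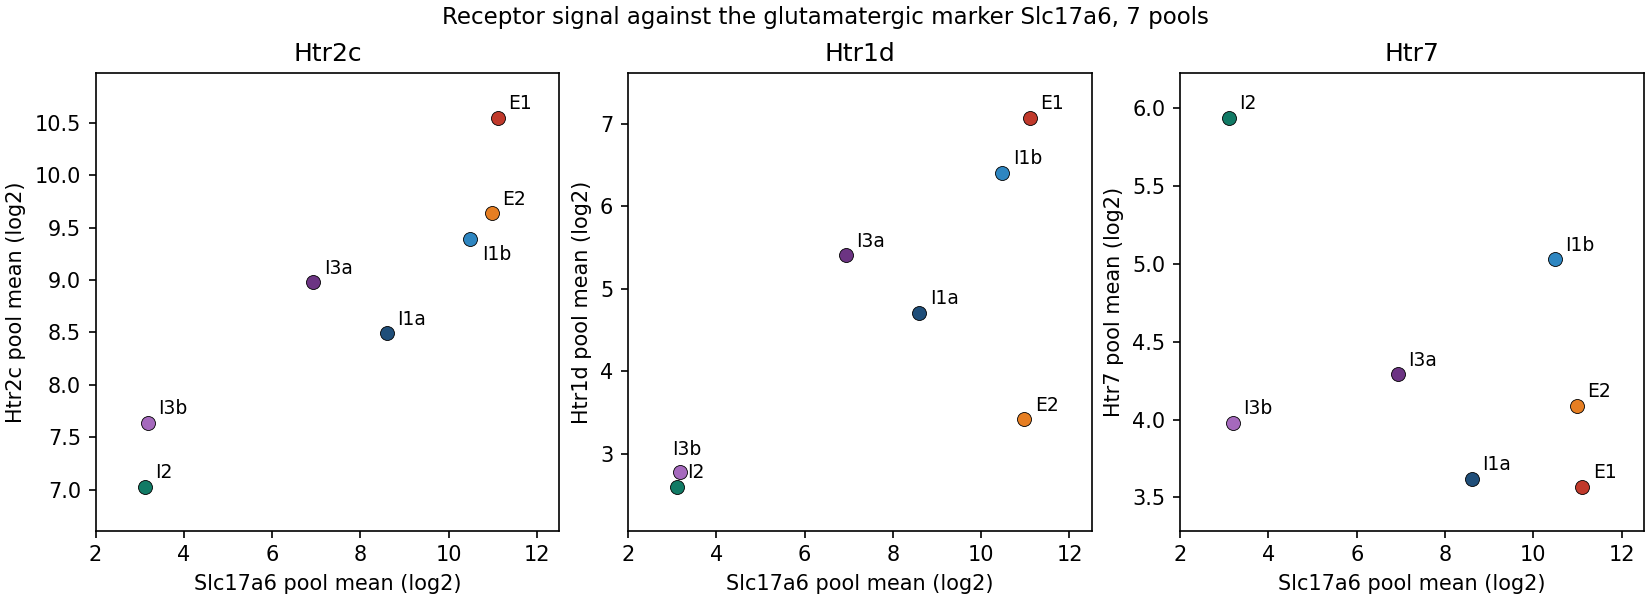
Pool mean of Htr2c, Htr1d and Htr7 (vertical axes, log2 signal, a scale for each gene) against the pool mean of Slc17a6 (horizontal axis, log2 signal), 1 point for each of 7 pools. Htr2c is 10.55 in E1, where Slc17a6 is 11.11, and 7.03 in I2, where Slc17a6 is 3.11, while Htr1d in E2 lies low at 3.42.

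The inhibitory families I1 and I3 were compared with 2 pools each. Htr1d averaged 5.56 in I1 pools and 4.10 in I3 pools, a difference of 1.47 (SE 1.44, limma adjusted p 0.754). Htr2c averaged 8.94 in I1 pools and 8.31 in I3 pools, a difference of 0.63 (SE 0.58, limma adjusted p 0.740). Htr7 averaged 4.32 in I1 pools and 4.14 in I3 pools, a difference of 0.19 (SE 0.52, limma adjusted p 0.931). The pool means of the families overlapped for all 3 genes. Groups of pools did not overlap for 40% of tested genes, and limma called none of 4410 genes (0%), with 496 (11.2%) at an unadjusted p under 0.05.

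Within families the types were compared on arrays, so that p-values cover technical error and compare pools. Between E1 and E2, Htr1d was 7.08 in E1 and 3.42 in E2, a difference of 3.66 (SE 0.22, limma adjusted p 5.39e-07), or 2.08 with values under 5 set to 5 (limma adjusted p 5.82e-06). It was the 1 receptor gene of 3 called, where 7.39% of all tested genes were. Htr2c was 10.55 in E1 and 9.64 in E2, and its difference of 0.91 (SE 0.12, limma adjusted p 2.60e-04) passed the test but fell short of 1 log2 unit. Htr7 was 3.57 in E1 and 4.09 in E2, with a difference of -0.52 (limma adjusted p 0.0819), the opposite sign. Of the GABA and glycine genes, Slc6a5 (6.31 in E1 and 3.33 in E2), Slc32a1 and Gad1 were called higher in E1. Gad2 was lower in E1, at 5.72 beside 6.43 in E2, and was not called. The part of cells with these transcripts in the Htr1d difference was not tested.

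Between I1a and I1b, Htr1d and Htr7 were called, both lower in I1a, where 13.1% of tested genes were called in either direction. Htr1d was 4.71 in I1a and 6.41 in I1b, a difference of -1.70 (SE 0.22, limma adjusted p 1.03e-04). Htr7 was 3.62 in I1a and 5.03 in I1b, a difference of -1.41 (SE 0.21, limma adjusted p 2.08e-04), and the call ended with values under 5 set to 5 (difference -0.05, limma adjusted p 0.711). Htr2c was 8.49 in I1a and 9.39 in I1b, a difference of -0.90 (limma adjusted p 1.46e-04), below the size limit. The median of all tested genes was -0.22 in this comparison. With arrays centred on their median the differences were -1.46 for Htr1d, -1.17 for Htr7 and -0.66 for Htr2c, with the same calls.

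Between I3a and I3b, Htr1d and Htr2c were called, both higher in I3a, where 9.91% of tested genes were called in either direction. Htr1d was 5.41 in I3a and 2.78 in I3b, a difference of 2.62 (SE 0.22, limma adjusted p 5.26e-06), and with values under 5 set to 5 it was 0.41 and not called (limma adjusted p 0.0596). Htr2c was 8.98 in I3a and 7.64 in I3b, a difference of 1.34 (SE 0.12, limma adjusted p 1.06e-05). Htr7 was 4.29 in I3a and 3.98 in I3b, a difference of 0.31 (limma adjusted p 0.289). The pools higher in Htr1d, I1b and I3a, were also those with Mbp, at 5.5 and 6.20, against 2.43 in I1a and 3.43 in I3b. Slc17a6 likewise stood at 8.60 in I1a beside 10.48 in I1b, and at 6.93 in I3a beside 3.19 in I3b. The part of either in these differences was not tested.

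**Figure D4:**
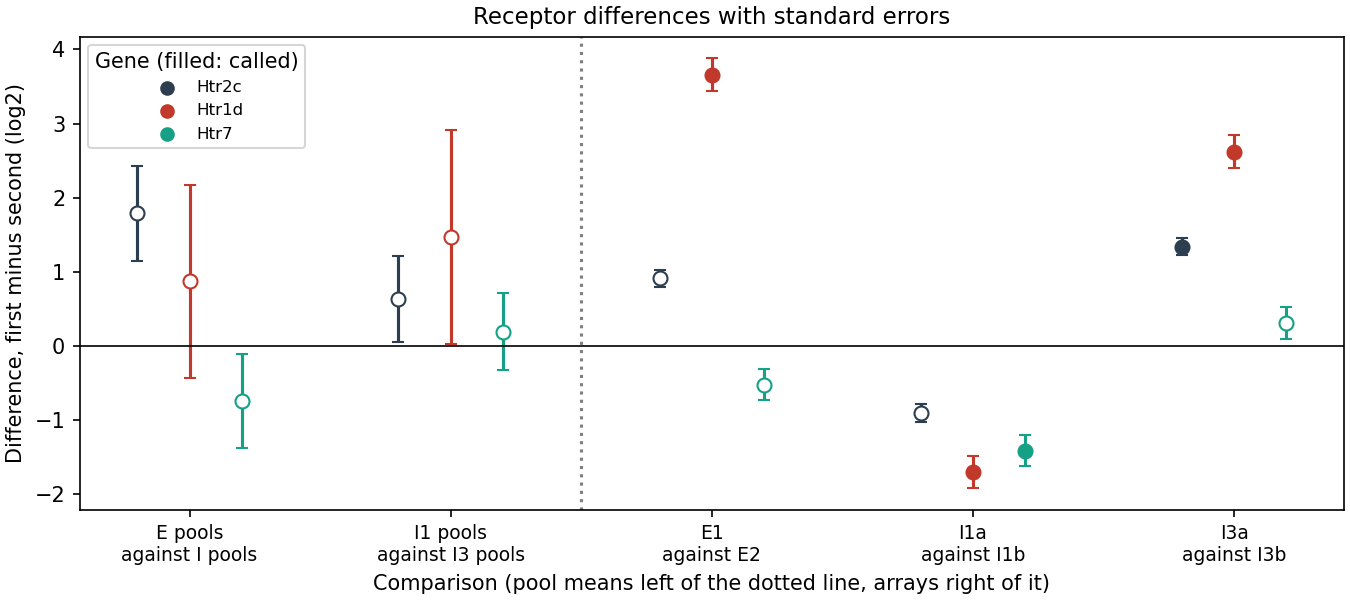
Difference in log2 signal, first-named minus second-named group, for Htr2c, Htr1d and Htr7 in 5 comparisons (horizontal axis), with standard errors as bars and filled points for called differences. Errors left of the dotted line are between pools and right of it between arrays of a pool. Htr1d differs by 3.66 between E1 and E2, -1.70 between I1a and I1b and 2.62 between I3a and I3b.

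Genes that carry the receptor signal onward were read from a list of 40, of which 32 were measured and 19 reached 5 in at least 1 pool. The list also held the receptors Htr2b, Htr3b, Htr5a and Htr6, none of which had a probe set under its symbol. Levels of S100a10, Rapgef3, Gnai3, Gnaq and Prkaca came from _x_at probe sets, whose probes may match other transcripts. Between pools 14 of the 19 differed by the F-test rule (55.2% of all tested genes did), with a median span of 1.5 beside 1.13. None was called between E and I pools (0.0227% of all tested genes were) or between I1 and I3 pools (0% were). The list medians were -0.02 and -0.11 in these comparisons, beside -0.01 and -0.04 over all tested genes.

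Among Gi/o effectors, Kcnj3, a subunit of the potassium channel that Gi/o-coupled receptors open, spanned 4.27 log2 units. It read 9.08 in E1 and 7.70 in E2. Among inhibitory pools I1b was highest at 8.39, followed by I1a at 7.33, while I2 and I3b read 6.38 and I3a 4.81. It was called in all 3 pair comparisons, with differences of 1.38 between E1 and E2 (limma adjusted p 1.19e-04), -1.07 between I1a and I1b (limma adjusted p 3.42e-04) and -1.58 between I3a and I3b (limma adjusted p 3.02e-05). Kcnj3 thus had the sign of Htr1d in the E and I1 pairs and the opposite sign in the I3 pair. The I1 call ended with arrays centred on their median (difference -0.82, limma adjusted p 0.00163) and with quantile normalization (-0.75, limma adjusted p 0.0034), both under 1 log2 unit. With all Kcnj3 probe sets averaged no pair was called, at 0.69, -0.53 and -0.78 in the same order. Between E and I pools Kcnj3 differed by 1.73 (SE 0.87, limma adjusted p 0.773) and between I1 and I3 pools by 2.27 (SE 0.72, limma adjusted p 0.375).

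Of the Gi subunits, Gnai2 read 4.0 in E1 and 4.88 in E2, and 3.87 in I1a to 5.49 in I2 among inhibitory pools. Gnai1 and Gnai3 were highest in I2, at 12.04 and 5.95, where their lowest pools read 10.68 and 3.81. S100a10 is an adaptor known to bind Htr1b and Htr1d and to raise their place at the cell surface. It had the opposite sign to Htr1d in the E and I3 pairs and the same sign in the I1 pair. It read 6.19 in E1 and 8.06 in E2, a difference of -1.87 (SE 0.28, limma adjusted p 4.72e-04). It read 4.82 in I1a and 7.21 in I1b, a difference of -2.38 (SE 0.28, limma adjusted p 4.33e-05), and 4.14 in I3a and 4.95 in I3b, a difference of -0.81 that was not called.

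On the Gq side, Gnaq, the G protein subunit of Htr2 receptors, varied little, from 9.58 in E2 to 10.49 in I3a. Plcb1, a phospholipase C beta isoform, was lowest in I2, at 3.47, and read 5.64 to 6.47 in the other 6 pools. Plcb4, another isoform, read 9.12 in E1 and 9.44 in E2. It was 10.42 in I1a and 8.95 in I1b, a difference of 1.47 (SE 0.12, limma adjusted p 2.59e-06) that was 0.42 and not called with all its probe sets averaged, and 10.90 in I3a and 11.70 in I3b, a difference of -0.80. I2, the pool lowest in Htr2c, thus had the lowest Plcb1 and, at 8.95, a Plcb4 level equal to that of I1b.

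On the cyclic AMP side, Adcy7, an adenylyl cyclase, read 6.77 in E1 and 9.80 in E2, a difference of -3.04 (SE 0.14, limma adjusted p 5.94e-08). It read 9.88 in I3a and 7.43 in I3b, a difference of 2.45 (SE 0.14, limma adjusted p 1.40e-07), and 7.20 in I1a and 7.74 in I1b, where it was not called. Adcy9 read 7.26 in E1 and 7.04 in E2, with a difference between E and I pools of 0.93 (limma adjusted p 0.780), and Adcy5 ranged from 4.59 in I2 to 5.73 in I1b. Rapgef3, an exchange factor that cyclic AMP opens, read 6.31 in I3a and 5.05 in I3b, a difference of 1.25 (SE 0.40, limma adjusted p 0.0334). That call ended without a filter (limma adjusted p 0.206), with a filter at 3 (0.067), on the probe set with the largest range (difference 0.56), with values under 5 set to 5 (0.91) and without 1 array of I3a or the first of I3b (1.40, 1.11 and 0.51). Gnas, the Gs subunit that Htr7 uses, was highest in I2 at 9.78 and lowest in I3a at 8.63. Prkaca, a catalytic subunit of protein kinase A, ranged from 10.40 to 10.62.

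In each pair 3 of the 19 pathway genes were called. Between E1 and E2, 1 gene was called higher in E1 and 2 lower, where 4.2% and 3.20% of all tested genes were. Between I1a and I1b, 1 was called higher in I1a and 2 lower, where 3.36% and 9.77% of all genes were, or 227 and 256 genes with arrays centred on their median in place of 148 and 431. With arrays so centred the list kept 2 calls there, Plcb4 and S100a10. Between I3a and I3b, 2 were called higher in I3a and 1 lower, where 2.99% and 6.92% of all genes were. Slc6a4 and Maob, which clear and degrade serotonin, stayed at 2.96 and 4.02 or below.

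**Figure D5:**
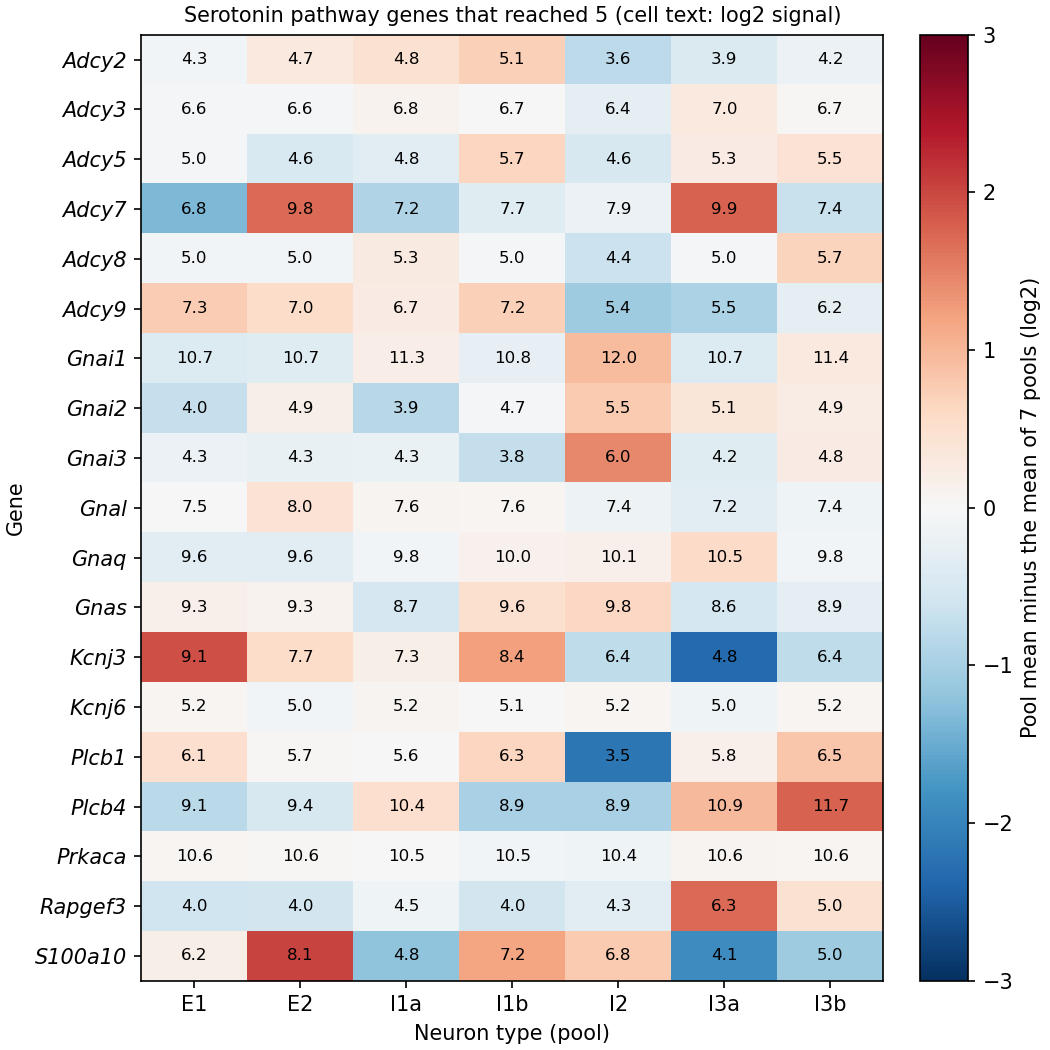
Serotonin pathway genes that reached 5 in at least 1 pool (rows) in 7 neuron pools (columns). Colour gives the pool mean minus the gene's mean over 7 pools, and the number in each cell is the log2 signal. Kcnj3 is highest in E1 at 9.08, Plcb4 in I3b at 11.70, and Gnai1, Gnai2 and Gnai3 in I2.

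The genes with pool patterns most like each receptor were sought by Pearson r over the 7 pool means among 822 named genes that spanned at least 2 log2 units. For Htr1d they were Npy5r, a neuropeptide Y receptor (r = 0.924), Rasgrf2, a Ras exchange factor (r = 0.899), and Trim9, a neuronal ubiquitin ligase (r = 0.894). Npy5r read 6.43 in E1, 6.06 in I1b, 5.22 in E2, 5.16 in I3a, 4.98 in I1a, 4.44 in I3b and 4.4 in I2. In E2 Npy5r lay above I3a and I1a, whereas Htr1d lay below both. For Htr2c they were Smyd2, a lysine methyltransferase (r = 0.968), Ttc9 (r = 0.966) and Atp2b2, a plasma membrane calcium pump (r = 0.954). Ttc9 had its 7 pools in the same order as Htr2c (rho = 1), from 11.87 in E1 to 9.81 in I2. For Htr7 they were Itm2a, a membrane protein (r = 0.973), Cldn1, a tight junction protein (r = 0.973), and Sema3c, a secreted guidance cue (r = 0.971). Cldn1 read 9.27 in I2, 5.74 in I1b and 4.27 in I3a, and 2.54 or less in the other 4 pools. With 7 points and 822 genes the best matches are high by selection, and these r describe the pools and carry no test.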

How the data were processed

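The deposited log2 signals were made by the authors with affy and GCRMA, per the submitters' processing notes. Versions and omitted probe sets are not given in the sources used here, and the log base was taken from GCRMA's usual output and the range of values, 2.387 to 15.90. In GEO's annotation 24047 of 30843 probe sets carried a single gene symbol, 6319 none and 477 more than 1, and 23896 matched RefSeq of GRCm38.p6 by Entrez gene.

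A gene was represented by its probe set with the highest mean (5278 genes had several). Genes with a pool mean of 5 or more were fitted with limma 3.58.1 in R 4.3.3, with lmFit and eBayes and an intensity trend. Calls needed a Benjamini-Hochberg adjusted p under 0.05 over 4410 genes and 1 log2 unit. E against I and I1 against I3 used 7 pool means, with 5 and 3 residual degrees of freedom. Pairs and the F-test used 14 arrays, with 7. All p-values are those of limma. Figures used matplotlib 3.10.9 with pandas 2.3.3 in Python 3.11.15. The number of arrays limits precision.

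Members, gene lists and motifs were chosen with earlier results of these data known. Named genes were all receptor genes, pathway genes that were called or among the 4 largest absolute differences of a comparison, and the 3 genes most alike in pattern (121 clone-type names left out). Other genes were named after their values were seen: Gnai1, Gnai3, Gnaq, Plcb1, Gnas, Prkaca, Slc6a4 and Maob. Same-numbered arrays deviated together weakly at most: the differences between arrays correlated between pools at r = -0.117 to 0.212, over 0.1 in 4 of 21 pairs of pools. Alternatives changed the filter, probe set, scaling, floor, trend, replicates, pools and blocks.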

Additional observations from a re-analysis of the deposited data

Results flagged for a closer look

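Among the 5 inhibitory pools, Htr3a had 1 pool far from the others: I1a at 2.66, where the others read 2.47 to 2.49. The value rests on 1 of the 2 arrays of I1a (2.84 and 2.48) and lies close to the floor of 2.387. Adcy7 also had 1 inhibitory pool far from the others, I3a at 9.88, beside 7.20 to 7.93 in I1a, I1b, I2 and I3b. A pool was flagged when its gap to the nearest pool passed 0.71 of the range (Dixon's ratio). Htr5b was flagged too, although it read 2.39 in each pool, at the floor. Many genes were screened, and chance flags about 1 group in 20.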

How the results depend on the processing

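The number of receptor genes called stayed at 0 for E against I and for I1 against I3 pools under every setting that kept 2 or more pools in each group. At most 0.159% of all tested genes were called there between E and I pools and 2.59% between I1 and I3 pools, so a count of 0 says little of stability. With the technical replicate number as a replicate block no count of receptor genes called changed in any of the 6 comparisons. As a hint from the data only, the block moved the calls over all genes in the I1 against I3 fit, where it also treats the pool as a random block, to 104, and the random block alone gave 114, where the fit on pool means called 0. Between E and I pools the same settings gave 5 and 6 in place of 1. For E1 against E2 the count was 1, and 1 to 2 when single arrays were left out. It was 2 without E1 replicate 2, where Htr2c differed by 1.02 and 8.19% of all tested genes were called. For I1a against I1b it was 2, against 1 with a filter at 7 (Htr7 removed) and 1 with values under 5 set to 5. Of all tested genes, 12.6% and 8.12% were called under these settings. Without single arrays the count was 2 to 3, since Htr2c differed by -1.03 without I1b replicate 1. There 13.7% of all tested genes were called. For I3a against I3b the count was 2, against 1 with values under 5 set to 5, where 5.8% of all tested genes were called. With a filter at 3, Htr4 passed the F-test rule, as 38.1% of all tested genes did. Without a filter Htr4 did not pass (span 1.21, limma adjusted p 0.177), where 15.9% of all tested genes did. Signs turned for differences that were not called: Htr1d between E and I pools without E1 (-0.96, in a range to 2.70 over pools left out), Htr7 between I1 and I3 pools without I1b (-0.52, in a range to 0.89), without the second arrays (-0.05) and without I1b and I3a (-0.37), and Htr2c there without I3b (-0.04, in a range to 1.30). With both probe sets averaged, Htr1d differed by 2.54 between E1 and E2, -1.37 between I1a and I1b and 1.66 between I3a and I3b, all called, and by 0.54 between E and I and 0.68 between I1 and I3 pools, not called. Of the pathway genes, Kcnj3 and Plcb4 were called between I1 and I3 pools on arrays with either block. All tested genes were called at 2.36% with the replicate block and 2.59% with the random block. These fits rest on technical arrays, and on pool means no pathway gene was called. With all probe sets averaged the calls in pairs were Adcy7 between E1 and E2 and between I3a and I3b. None was called between I1a and I1b, with S100a10 below the filter. Without 1 array of every pool, fits on arrays give values with no test. Signal near the floor limits what can be said of Htr1b, Htr1f, Htr3a, Htr4 and Htr5b.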
